A study of Mus musculus with 4 samples.

Results

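A set of 719 autosomal CpG-island regions had less methylated DNA than the typical autosomal probe on each of 4 arrays of newborn mouse brain. The 4 arrays came from a study of prenatal exposure to titanium dioxide nanoparticles, each hybridised with 1 pool of genomic DNA. A region was a run of probes on an autosome with gaps of at most 1000 bp, and it was eligible when it held at least 5 probes whose input signal was well above background on all 4 arrays. The level of a region was the median over its probes of the log2 ratio of antibody-enriched DNA over input DNA, after the median of all autosomal probes of the array had been set to 0. A region entered the set when this level was -0.3 or less on each array. Of 5606 eligible regions, 719 (12.8%) met the rule, and they held 5074 probes. The members were thus chosen by the centred ratios of all 4 arrays, so their levels and the folds computed from them are descriptions. A test on these levels is given further below, and nothing is read from it for the members.

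Whole brains were taken on postnatal day 1 from offspring of C57BL/6J dams. The dams of the Sham male and Sham female pools had received vehicle, and those of the TiO2-H male and TiO2-H female pools 100 ug of nanoparticles per mouse, both intratracheally. The sample names place this on gestational day 14 and the treatment protocol on gestational day 10.5. Each pool mixed DNA of 2 offspring from each dam, with 5 dams behind a Sham pool and 6 behind a TiO2-H pool. Each group had 1 array, so there was no replicate and no spread within a group. Both arrays labelled male lay on 1 slide and both labelled female on the other, so slide and sex cannot be told apart, and the same holds for array position and exposure.

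CpG islands are short stretches of DNA rich in the dinucleotide CpG that cover the start sites of most widely expressed genes. In most tissues they carry little 5-methylcytosine, whereas islands of imprinted genes and many germline genes are methylated in somatic cells. Methylated DNA immunoprecipitation (MeDIP) pulls down denatured fragments with an antibody against 5-methylcytosine, and its yield rises with both the methylation and the number of CpG in a fragment. A low ratio is therefore a low yield relative to the other probes of the array, not a percentage of methylation.

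The input signal of the 2471 X-linked probes went against the sex labels on the TiO2-H arrays. Relative to the autosomes, the Sham male pool had -0.75 on the log2 scale and the Sham female pool 0.03. The TiO2-H pool with the male label had 0.03 and the one with the female label -0.74. The groups below keep the labels, and the comparisons within a sex are given a second time after exchanging the sex labels of the TiO2-H pair.

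As examples, 4 promoters from the low set are printed here, and a pair from islands that were high on every array is shown for contrast. They are the 4 lowest low regions, and the 2 highest of the others, that contain a probe listed inside the promoter window of a gene with 1 annotated start. Each runs from 250 bases before to 50 bases after the start site in RefSeq on GRCm38.p6, with every CpG in capitals. Atrip, which encodes the partner of the ATR kinase in the DNA damage checkpoint, lies at chr9:109074075-109074374 on the minus strand, and Surf2, a gene of the surfeit cluster, at chr2:26916158-26916457 on the plus strand. Fgf11, which encodes an intracellular fibroblast growth factor, lies at chr11:69802231-69802530 on the minus strand, and Pthlh, which encodes parathyroid hormone-like hormone, at chr6:147263964-147264263 on the minus strand. Sycp2, a component of the meiotic synaptonemal complex, lies at chr2:178407609-178407908 on the minus strand, and Ddx4, the germ cell helicase also called Vasa, at chr13:112652261-112652560 on the minus strand.
Atrip: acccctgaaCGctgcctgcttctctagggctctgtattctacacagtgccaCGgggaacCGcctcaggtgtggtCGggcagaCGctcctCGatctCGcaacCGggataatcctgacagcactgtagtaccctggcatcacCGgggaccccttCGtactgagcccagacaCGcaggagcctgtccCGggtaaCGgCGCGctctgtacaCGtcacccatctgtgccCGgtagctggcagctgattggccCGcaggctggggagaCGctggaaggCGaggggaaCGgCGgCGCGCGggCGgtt
Surf2: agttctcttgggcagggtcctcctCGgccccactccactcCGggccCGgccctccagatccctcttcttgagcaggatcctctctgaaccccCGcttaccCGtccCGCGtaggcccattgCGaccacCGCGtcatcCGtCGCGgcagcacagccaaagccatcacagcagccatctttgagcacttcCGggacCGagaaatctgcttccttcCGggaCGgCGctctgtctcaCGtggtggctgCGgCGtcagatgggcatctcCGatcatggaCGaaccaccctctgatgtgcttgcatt
Fgf11: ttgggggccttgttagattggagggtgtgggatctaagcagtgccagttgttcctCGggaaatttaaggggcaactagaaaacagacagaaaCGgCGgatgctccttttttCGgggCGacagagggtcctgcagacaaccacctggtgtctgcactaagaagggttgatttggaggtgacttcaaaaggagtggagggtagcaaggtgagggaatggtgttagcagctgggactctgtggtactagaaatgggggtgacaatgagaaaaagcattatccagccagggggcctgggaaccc
Pthlh: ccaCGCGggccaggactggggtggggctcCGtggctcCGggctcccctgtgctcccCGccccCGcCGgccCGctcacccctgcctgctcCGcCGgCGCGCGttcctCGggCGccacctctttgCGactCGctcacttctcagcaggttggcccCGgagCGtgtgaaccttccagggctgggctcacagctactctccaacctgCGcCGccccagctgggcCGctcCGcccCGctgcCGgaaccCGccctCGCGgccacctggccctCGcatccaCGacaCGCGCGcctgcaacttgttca
Sycp2: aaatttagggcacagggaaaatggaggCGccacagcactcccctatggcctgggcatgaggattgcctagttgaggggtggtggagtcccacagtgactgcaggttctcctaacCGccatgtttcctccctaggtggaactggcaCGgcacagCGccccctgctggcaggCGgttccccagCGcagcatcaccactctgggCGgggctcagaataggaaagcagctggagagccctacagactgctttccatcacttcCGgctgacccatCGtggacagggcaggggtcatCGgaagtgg
Ddx4: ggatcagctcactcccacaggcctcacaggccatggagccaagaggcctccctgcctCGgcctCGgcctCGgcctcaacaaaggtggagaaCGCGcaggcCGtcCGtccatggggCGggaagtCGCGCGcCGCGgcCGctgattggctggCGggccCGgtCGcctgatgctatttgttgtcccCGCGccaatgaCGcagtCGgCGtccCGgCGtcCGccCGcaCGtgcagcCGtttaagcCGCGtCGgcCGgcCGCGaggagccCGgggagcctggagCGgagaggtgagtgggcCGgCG

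The number of CpG in these windows did not separate low from high. The Atrip window held 26 CpG, that of Surf2 23, that of Pthlh 33 and that of Fgf11 only 5. The Fgf11 count was the lowest among the 55 promoters of the low set described further below. The listed probes of the Fgf11 region were placed inside the gene and none in a promoter. As no coordinates were converted between builds, whether its printed window overlaps the measured island was not tested. Of the methylated pair, the Sycp2 window held 10 CpG and the Ddx4 window 38, more than any of the 4 low ones. The level of the Atrip region was -1.51 and -0.34 in Sham (male, then female) and -1.73 and -1.83 in TiO2-H (male, then female), the order kept for all sets of 4 values below. The level of the Ddx4 region was 2.55, 1.86, 2.02 and 2.69 on the same arrays.

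Members of the low set were deepest on the Sham male array and shallowest on the Sham female array. On the Sham male array their levels ran from -2.62 to -0.31 with a median of -0.96. On the Sham female array they ran from -1.56 to -0.30 with a median of -0.50. On the TiO2-H male array the range was -1.96 to -0.30 with a median of -0.77, and on the TiO2-H female array -2.08 to -0.30 with a median of -0.88. The order of these medians was that of the spread of all autosomal probes, whose median absolute deviation was 1.08, 0.60, 0.91 and 1.04. The Sham female array was the highest of the 4 in 462 of the 719 regions and the lowest in 27, and the Sham male array was the lowest in 325. The difference between the highest and the lowest array within a region had a median of 0.67 and reached 2.02.

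**Figure D1:**
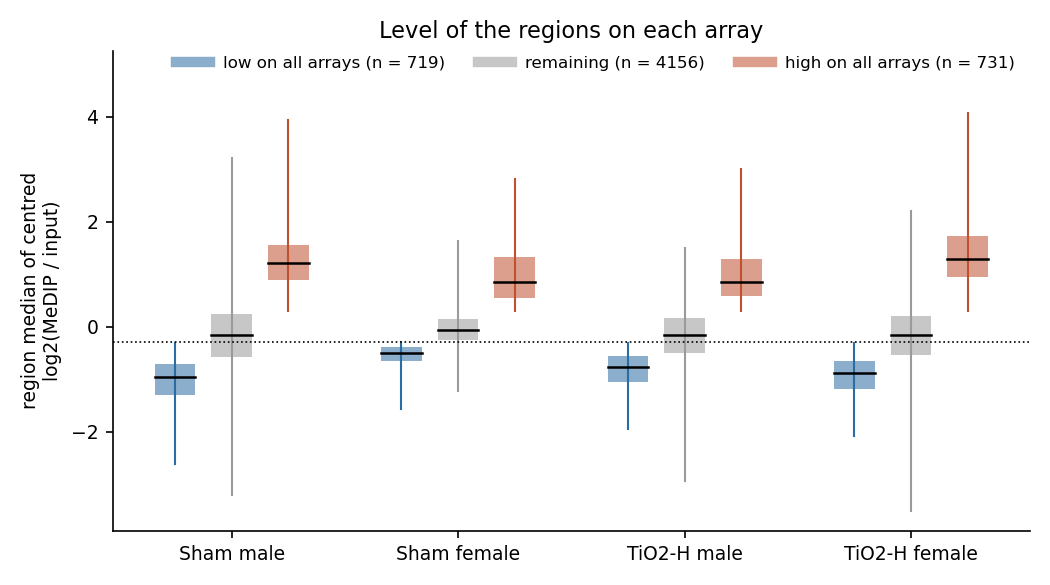
Level of the low, remaining and high regions on each array, as the median over the probes of a region of the centred log2 ratio of MeDIP over input. Boxes span the quartiles, black bars are medians, lines run from the lowest to the highest region, and the dotted line is the limit of -0.3. The low set has medians of -0.96, -0.50, -0.77 and -0.88 and the high set medians of 1.21, 0.85, 0.86 and 1.29.

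The Sham female array also decided most often which regions stayed out. A further 739 regions were at -0.3 or less on the other 3 arrays but not on this one, so the set would hold 1458 regions without it. The Sham male array kept out 76 regions, the TiO2-H male array 211 and the TiO2-H female array 85. Just inside the limit lay Mvb12a, which encodes a subunit of the ESCRT-I sorting complex, Hsph1, which encodes a heat shock protein of the Hsp110 family, and the region chr13:12198108-12199407 (mm9), each at -0.30 on the Sham female array. Just outside lay chr13:104899347-104900165 and chr10:81590620-81591097, also at -0.30 on that array, and Asap1, which encodes an Arf GTPase-activating protein, at -0.30 on the TiO2-H male array.

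Much of this depth was set by MeDIP signals near the background. Within the low set, 36.9% of the probes had a MeDIP (Cy5) signal well above background in Sham males and 53.1% in Sham females, but 11.6% on the TiO2-H male array and 17.2% on the TiO2-H female array. Over all eligible regions the shares were 55.2, 63.1, 26.4 and 35.3%. The median net Cy5 signal of the low set before dye scaling was 3.25, 5.36, 1.38 and 1.63 scanner units, against a median net input (Cy3) signal of 92.5, 101, 112 and 119 units. A measured MeDIP signal at 50% or more of the probes was found in 189, 457, 2 and 13 of the 719 regions, and no probe had one in 37, 11, 298 and 198. On the TiO2-H arrays the level of most members is thus only an upper limit. On both Sham arrays, 167 members had a measured signal at 50% or more of their probes, and on all 4 arrays 2 members had. The scaled input signal, the denominator of the ratio, had medians of 979, 985, 785 and 809 in the low set and 949, 925, 771 and 774 over all eligible regions.

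**Figure D2:**
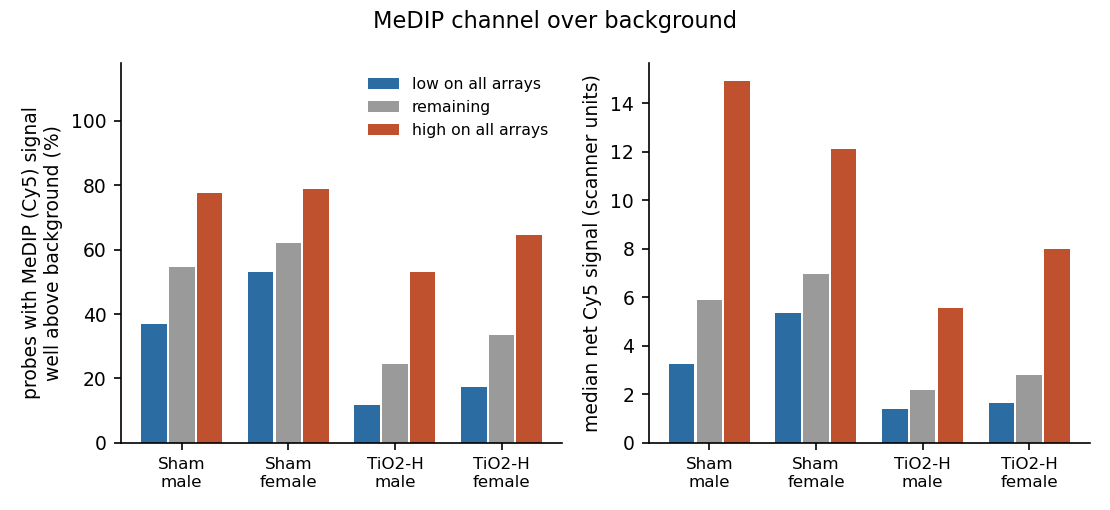
Left, percentage of probes whose MeDIP (Cy5) signal was well above background on each array, and right, the median net Cy5 signal in scanner units, for the low, remaining and high regions. In the low set the share falls from 53.1% on the Sham female array to 11.6% on the TiO2-H male array.

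The regions with the lowest means of the 4 levels had almost no measured MeDIP signal on the TiO2-H arrays. Their mean depth and their order are therefore not measured values. The 5 lowest had 0 measured probes on both TiO2-H arrays and 0 to 2 on the Sham male array. In Sham females, by contrast, the 5 lowest had from 2 to 5 measured probes each. They include chr2:90687188-90687823 (mm9), at -1.82, -0.97, -1.77 and -2.08, a region for which no gene symbol was given, and Tmem254a, inside the gene at chr14:26746521-26747103, at -2.16, -0.62, -1.89 and -1.96. The regions without a symbol at chr11:48613766-48614357, chr15:77800770-77801700 and chr8:96696139-96696851 had means of -1.63, -1.56 and -1.51. Among the regions with a symbol, Col18a1, the collagen that gives rise to endostatin, had a mean of -1.39, and Itga7, a laminin-binding integrin subunit, had a mean of -1.38. Gpr137b-ps, a pseudogene, and Atrip had means of -1.38 and -1.35. In each of these regions the Sham female array was the highest of the 4, and no probe of them was measured in the MeDIP channel on the TiO2-H male array.

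The longest members were islands of well-known genes and were less deep. The longest held 27 probes over the promoter and start of Adgrb1, an adhesion receptor that takes part in the uptake of apoptotic cells (chr15:74346432-74350251), at -0.98, -0.38, -0.80 and -0.67. Mzb1, a chaperone-associated protein of B cells, had 24 probes and levels of -0.60, -0.43, -0.51 and -0.48. Cebpa, a transcription factor of myeloid and fat cells, had 21 probes (chr7:35902950-35905734) and levels of -0.65, -0.50, -0.43 and -0.60. Rab11fip3, an adaptor of recycling endosomes, had 18 probes and levels of -1.18, -0.32, -0.72 and -0.74. All 4 levels of Mzb1 and Cebpa lay within 0.3 of each other, whereas those of Rab11fip3 were spread over 0.9 and the Sham female level was again the highest. The MeDIP signal was well above background at 9, 10, 3 and 6 of the 24 probes of Mzb1. For Cebpa it was so at 8, 9, 3 and 5 of the 21 probes. The closeness of these levels is therefore not a measured agreement.

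Gene symbols came from a list of probes that the study ordered by the male comparison and that is held only in part, from high to near 1, so named regions lean towards those that did not fall in males. Of the 719 members, 249 had 1 symbol, 8 had several and 462 had none. Among all eligible regions with 1 symbol, 13.3% were in the low set and 15.9% in the high set, the 731 eligible regions at 0.3 or more on each array. These are the shares to read the gene groups against. The groups were drawn by the symbols of chosen gene families, so each holds only part of the genes of its kind.

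Genes of the ubiquitin and proteasome group were in the low set in 6 of 18 named regions, and 1 of the 18 was high on all arrays. They were Psmd9, Psmd11 and Psmd12, which encode subunits or an assembly factor of the proteasome's regulatory particle, and the deubiquitinase genes Usp4, Usp42 and Usp45. Psmd12 was the lowest, at -1.65, -0.65, -1.09 and -1.40 (chr11:107340618-107341236). Psmd9 was at -1.23, -0.70, -1.14 and -0.95, and Psmd11 and Usp42 had means of -0.92 and -0.74. Of the RNA processing genes, 3 of 9 were low, namely the helicase gene Ddx39a with a mean of -1.10, the splicing kinase gene Prpf4b with -0.66 and the splicing factor gene Srsf7 with -0.53. Translation had 3 of 24, which were the initiation factor gene Eif1 with a mean of -1.18, the mitochondrial ribosomal protein gene Mrpl37 with -1.09 and the ribosomal protein gene Rpl30 with -0.84.

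Developmental regulators were in the low set about as often as named regions in general. Of 40 regions of the chosen families of developmental transcription factors, 4 were low. They were Tbx3 with a mean of -0.83, the hair cell factor Pou4f3 with -0.74, Irx1 with -0.60 and the kidney progenitor factor Six2 with -0.57. Of 19 regions of developmental signalling genes, 3 were low, namely Fgf11 with a mean of -1.30, the Wnt receptor gene Fzd6 with -0.71 and Bmp8a with -0.70. Of these, Fgf11 belongs to the fibroblast growth factors that act inside the cell rather than as secreted ligands. Transcription and chromatin genes had 1 of 13, the RNA polymerase III subunit gene Polr3c with -0.92, and cell cycle genes had 1 of 8, Mcm3ap with -0.86, which is known for the export of messenger RNA. The mitochondrial respiration list had 0 of 5 and the protocadherins 0 of 5. The high set held 4 of the 40 transcription factor regions, 5 of the 19 signalling regions and 2 of the 13 transcription and chromatin regions. It also held 0 cell cycle, 0 mitochondrial respiration and 1 protocadherin region.

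The imprinted and germline genes of the chosen lists, known for methylated islands, lay mostly at the other end. The imprinted list had 0 of 6 regions in the low set and 6 of 6 in the high set, and the germline list had 0 of 7 and 4 of 7. Dio3, an imprinted gene outside that list, was in the low set with a mean of -0.79. The synapse and ion channel list had 1 of 37 regions in the low set, the potassium channel gene Kcnk5 with a mean of -0.72, and 10 in the high set. Zinc finger genes had 5 of 45 regions in the low set and 21 in the high set. The low ones were Zfp868 with -0.80, Zfp715, Zfp316, Zfp3 and Zfp322a, the last with a mean of -0.50, and another region of Zfp316 was in the high set. With the few regions per list, and levels that chose the regions, these counts are descriptions.

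Some members lie at genes known for roles in the developing brain, picked for that role after their values had been seen. Nes, the intermediate filament gene of neural stem cells, was at -0.64, -0.37, -0.55 and -0.59 (chr3:87774900-87775993). Pitx3, a transcription factor of midbrain dopamine neurons that is outside the families counted above, was at -0.52, -0.57, -0.60 and -0.71 over 12 probes (chr19:46210279-46211752). Both had levels within 0.3 of each other on the 4 arrays, though most member levels on the TiO2-H arrays are upper limits. Egfr, the epidermal growth factor receptor gene, was at -0.59, -0.44, -0.57 and -0.52. Cxcl12, a chemokine that guides migrating interneurons, had a mean of -0.73, and Gphn, the scaffold of inhibitory synapses, had a mean of -0.53. The hormone precursor gene Pomc and the cannabinoid receptor gene Cnr1 had means of -0.89 and -0.82.

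The members were slightly shorter than the other regions and were found on every autosome. They had a median of 6 probes over 761 bp (346 to 3820 bp), against 7 probes over 835 bp in the other eligible regions. The share of eligible regions in the low set was 13.9% at 5 to 6 probes, 12.1% at 7 to 9, 11.6% at 10 to 14 and 8.38% at 15 or more. A median over few probes varies more, and this was not taken out of the shares. By chromosome the share went from 9.90% on chromosome 10 to 20.0% on chromosome 13, where 40 of 200 eligible regions were members.

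Listed probes of low regions lay at gene starts in a larger share than those of high regions, and in a share near that of the remaining ones. Of the 312 listed probes in the low set, 29.2% were placed in a promoter and 5.77% in a divergent promoter shared by a pair of genes. In the high set these shares were 9.76 and 1.13% of 533 probes, with 88.7% inside genes, and in the 4156 remaining regions 28.1 and 3.26% of 1655 probes. The probes come from the incomplete list described above, and probes of 1 region are not independent.

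The promoters of low regions were rich in CpG, as were those of the other islands. The 55 single-start promoters with a listed probe in the window had a median of 26 CpG in 300 bases (quartiles 22 and 30.5), the 213 of the remaining regions 25, the 20 of the high set 22.5, and all 32851 RefSeq promoters had 7. The letters CCGGAAG, the core of ETS family sites, were found on either strand in 14 of the 55 (25.5%), in 12.2% of the remaining regions' promoters and in 8.86% of all promoters. The Surf2 window printed above was 1 of the 14, and the Sycp2 window of the high set holds these letters too. CCAAT, the core of NF-Y sites, was found in 29 of the 55 (52.7%), against 37.6% and 37.4%. It is in the Atrip and Fgf11 windows and in the Ddx4 window of the high set. The GC box GGGCGG was found in 76.4%, against 78.4% and 35.7%, the E-box CACGTG in 16.4%, against 13.1% and 7.15%, and TATAAA in 7.27%, against 3.29% and 13.6%. The cores of NRF1, YY1 and CREB sites were searched as well and were found in 0, 1 and 3 of the 55. In the 20 promoters of the high set CCGGAAG was found in 15.0% and CCAAT in 35.0%. The GC box was found there in 80.0%, the E-box in 15.0% and TATAAA in 15.0%. A match describes the letters of the window and no more.

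Except on the TiO2-H male array, the end probes of low regions lay near the inner ones, whereas those of the other islands were lower. From 11.6 to 53.1% of the probes of low regions had a measured MeDIP signal, depending on the array. The part of this in the difference was not tested. In the low set, the mean of the 2 end probes minus the median of the inner probes had a median over regions of 0.00, 0.03, 0.34 and -0.02. In the high set it was -0.64, -0.28, -0.35 and -0.64, and in the remaining regions -0.48, -0.14, -0.04 and -0.40. On the TiO2-H male array the end probes of the low set were thus higher than the inner ones by 0.34, in 65.2% of the regions. It was 0.03 or less on the other 3 arrays, and on this array the end probes of the remaining regions also fell off least.

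**Figure D3:**
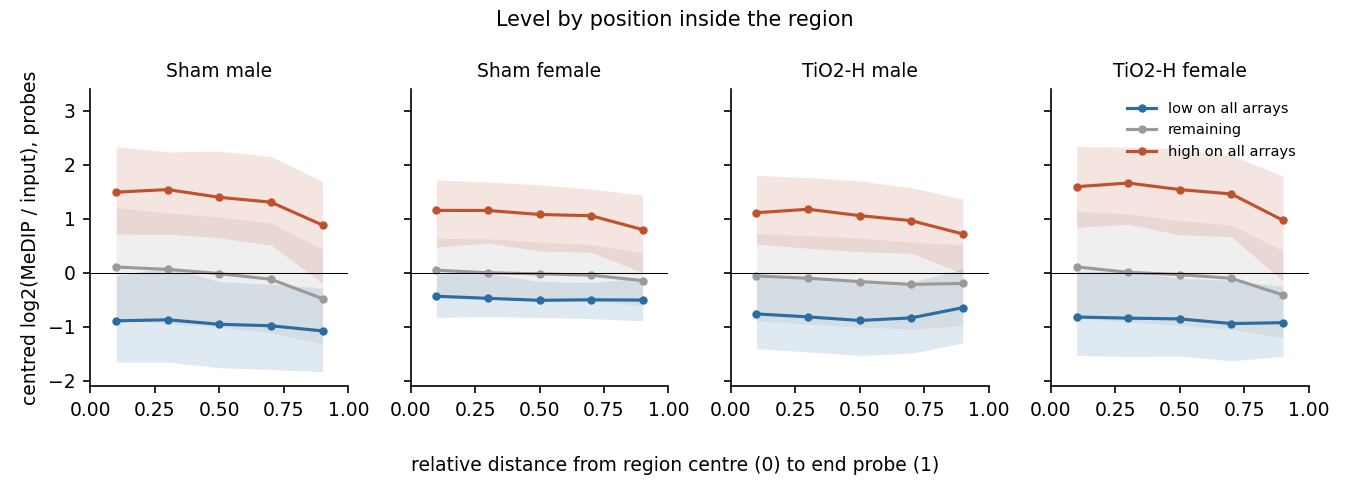
Centred log2 ratio of MeDIP over input of single probes against the relative distance from the centre of the region (0) to its end probe (1), in 5 bins for each array. Lines are medians over probes and shading spans the quartiles. In the low set the median of the outermost bin is -1.08 on the Sham male and -0.65 on the TiO2-H male array, while the high set drops towards the end on every array.

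The low level was rarely shared by all probes of a region. In 5 of the 719 regions every probe was at -0.3 or less on every array, and 48.4% of the member probes were at -0.3 or less on all 4. The pattern of probes within a region recurred from array to array. The deviations of the 5074 probes from the median of their region correlated between arrays with r from 0.57 (Sham female and TiO2-H male) to 0.86 (Sham male and TiO2-H female), across probes that share the spot sequence and are not independent. The levels of the 719 regions themselves correlated with r from 0.04 to 0.58, over a range that the rule had cut off at -0.3, against 0.62 to 0.86 over all eligible regions.

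Single probes inside low regions were high on every array. A centred ratio of 1 or more on all 4 arrays was found for 217 probes (4.28% of the member probes) in 191 regions (26.6%), compared with 10.2% of the probes of the remaining regions. They made up 2.50% of the 1438 end probes and 4.98% of the 3636 inner probes. In 51 cases both neighbouring probes were at -0.3 or less on all 4 arrays, at a median gap of 95 bp on one side and 67 bp on the other, which is shorter than most of the sonicated fragments (mainly 200 to 800 bp per the labels). The high probes were measured in the MeDIP channel in 96.3 to 100% of cases. Their scaled input signal was also higher than that of the other member probes, with medians of 1588 against 960, 1545 against 968, 1363 against 763 and 1235 against 796. Whether the sequence of these probes plays a part was not tested.

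Akap8, which encodes a nuclear anchoring protein of protein kinase A, held the highest of these isolated probes. At chr17:32457616-32457660 (mm9) the ratio was 5.64, 3.11, 2.92 and 4.83. The next probe to the right, centred 137 bp away, was at -2.07, -0.54, -2.12 and -1.36, and the one 192 bp to the left at -1.15, -0.50, -1.44 and -2.23. A second probe of the same region, 814 bp away, was at 4.54, 2.80, 3.06 and 4.69, also between low neighbours. In Hic2, which encodes a zinc finger repressor, the probe at chr16:17233627-17233671 was at 4.23, 2.60, 2.42 and 3.79, and that 167 bp away at -0.79, -0.70, -1.72 and -1.62. In Cdca4 the probe at chr12:114067608-114067652 was at 3.98, 2.40, 2.46 and 4.03, with a neighbour 68 bp away at -1.49, -0.58, -1.35 and -0.81. The MeDIP signal of the Hic2 probe was 28596 on the Sham male array, and that of its neighbour 319.

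**Figure D4:**
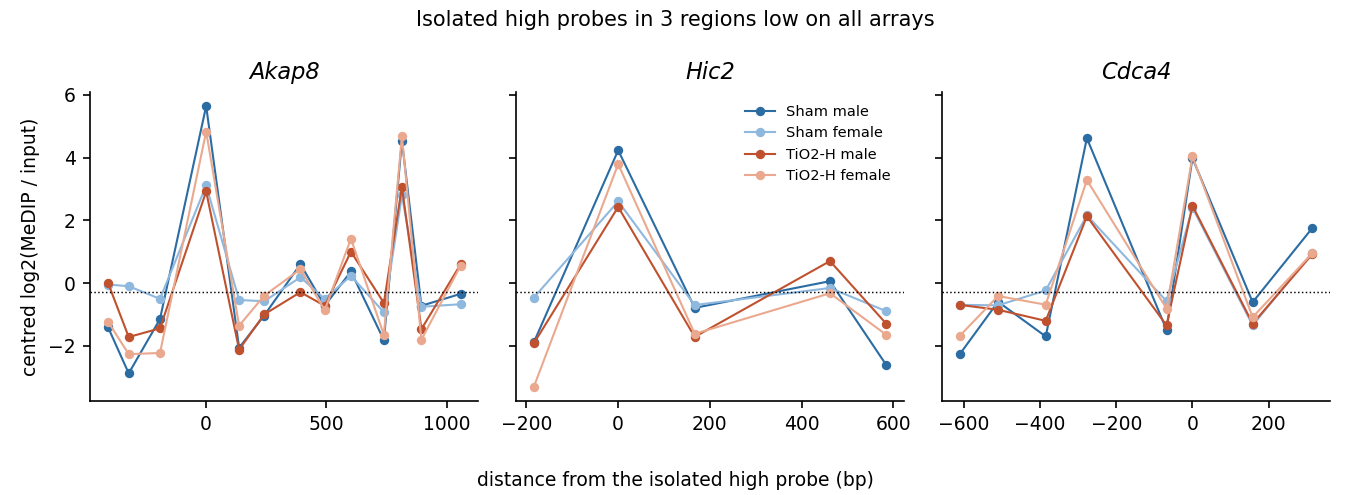
Centred log2 ratio of MeDIP over input of each probe against its distance in bp from the isolated high probe, for the low regions at Akap8, Hic2 and Cdca4, with 1 line per array and the limit of -0.3 dotted. The peaks stand at the same probes on all 4 arrays, at 5.64, 3.11, 2.92 and 4.83 in Akap8.

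The comparison of TiO2-H with Sham, the question of the study, was made by fold within each labelled sex, with 1.5 or more counted as higher and 0.67 or less as lower. A region took the median of the log2 folds of its probes, which can differ in sign from the difference between its levels. The same levels chose the members, so nothing is read from the shares below beyond their values. In the male comparison 125 members (17.4%) were higher, against 7.83% of all eligible regions, and 29 (4.03%) were lower, against 14.9%. The median log2 fold over the members was 0.11. In the female comparison 11 members (1.53%) were higher, against 13.4%, and 170 (23.6%) were lower, against 12.8%, with a median log2 fold of -0.24. Between the 2 Sham arrays, 217 members (30.2%) were higher in the female than in the male pool, against 13.9%, and 2 were lower, against 10.9%. Between the 2 TiO2-H arrays 66 members (9.18%) were past the fold, 27 higher and 39 lower in the pool labelled female, against 16.5% of all eligible regions.

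These splits changed when the spread of the arrays was made equal. With a common spread, 68 members were higher and 34 lower in the male comparison, against 5.76 and 10.0% of all eligible regions, and 49 and 46 in the female comparison, against 4.69 and 12.9%. Between the Sham arrays 70 were higher and 41 lower in the female pool, against 14.8 and 4.71%, and between the TiO2-H arrays 36 and 10, against 8.70 and 1.46%. With quantile normalization the male comparison had 69 higher and 28 lower members, against 6.10 and 9.24%, and the female comparison 56 and 41, against 6.24 and 8.26%. The Sham arrays then gave 48 and 60, against 9.35 and 7.85%, and the TiO2-H arrays 22 and 16, against 6.10 and 2.09%. Without centring the whole array shifted, so that 157 members were higher and 19 lower in males, against 10.1 and 10.6% of all eligible regions, and 0 and 480 in females, against 0.232 and 36.9%. Between the Sham arrays the counts without centring were 371 and 0, against 24.6 and 2.85%, and between the TiO2-H arrays 4 and 224, against 2.10 and 15.8%. The median log2 fold over the members was -0.02 and -0.01 with a common spread, 0.00 and 0.07 with quantile normalization, and 0.19 and -0.74 without centring, for the male and female comparisons. With exchanged sex labels in the TiO2-H pair, 49 members were higher and 7 lower in the male comparison (3.78 and 2.12% of all eligible regions), and 12 higher and 151 lower in the female comparison (2.59 and 15.0%).

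**Figure D5:**
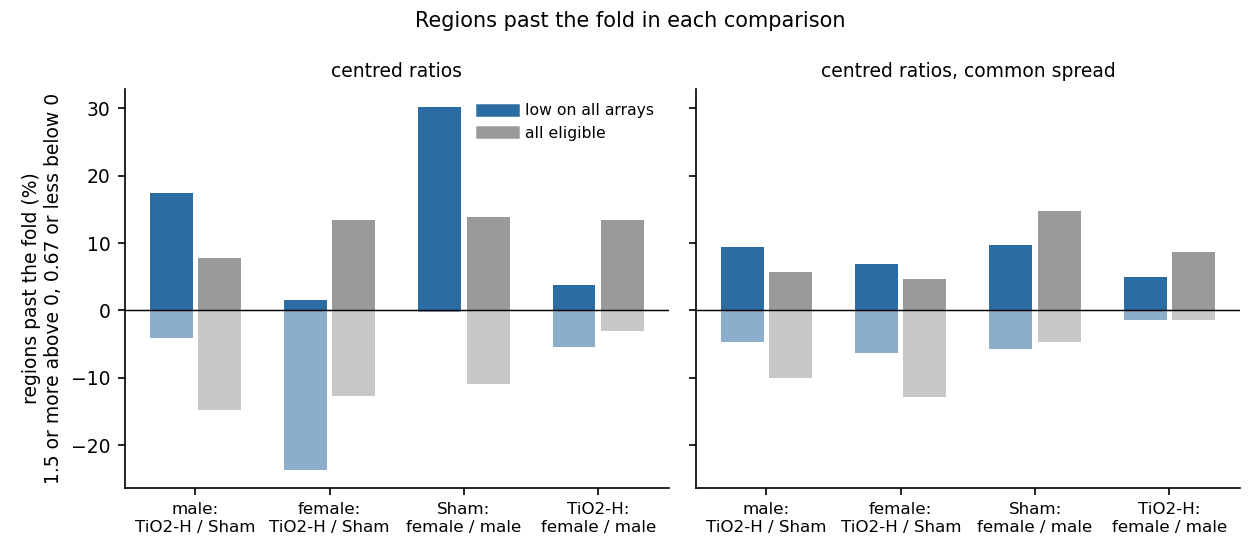
Percentage of regions at 1.5-fold or more (above 0) and at 0.67-fold or less (below 0) in 4 pairs of arrays, for the 719 low regions and all 5606 eligible regions. Left, centred ratios; right, after each array was scaled to a common spread. In the low set the female comparison goes from 11 higher and 170 lower regions to 49 and 46.

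Few of these folds rested on measured MeDIP signals. At least 3 probes with a Cy5 signal well above background on both arrays were found in 1 of the 125 higher and 4 of the 29 lower members in the male comparison, and in 0 of the 11 and 5 of the 170 in the female comparison. Over all eligible regions they were found in 26 of 439 higher and 381 of 833 lower regions in males. In females they were found in 449 of 749 higher and 135 of 716 lower ones. When only such probes were used, 28 members could be compared in males, of which 0 were higher and 21 lower, and 74 in females, of which 26 were higher and 1 lower. The median log2 folds of these were -0.80 and 0.44, each of the opposite sign to the median over all members. This choice keeps probes by their MeDIP signal, which also enters the fold, so nothing is read from the change of sign. Over all probes of the high set, the median log2 folds were -0.39 in males and 0.44 in females. Over all eligible regions with such probes, 55.4% of 1654 were lower in males and 51.1% of 2518 higher in females.

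Members past the fold in the same direction in both sexes were rare. Of the 719, 5 (0.695%) were higher in both, against 0.642% of all eligible regions, and 4 (0.556%) were lower in both, against 1.52%. A further 41 (5.70%) were higher in males and lower in females, against 1.86%, and 0 the reverse, against 3.28%. With exchanged sex labels in the TiO2-H pair the 41 became 7, against 0.571% of all eligible regions, with a common spread 7, against 1.28%, and with quantile normalization 5, against 0.678%. The reverse stayed at 0 members under each, against 0.00, 0.232 and 0.339%. Among the 5 higher in both, the island at Mir92b, a microRNA gene of the miR-25 family, had levels of -0.93, -1.19, -0.48 and -0.80 (chr3:89031189-89031784), with 2 of its 6 probes measured on each Sham array and 0 on the TiO2-H arrays. No fold is given for it, because no probe was measured on the side counted as higher. The other higher ones, at chr11:34646752-34647334, chr11:3996584-3997010, chr3:95754684-95755361 and chr14:56300293-56300985, had no symbol. On the TiO2-H arrays they had at most 1 measured probe each, so no fold is given for them either. Of these, chr11:34646752-34647334 went from a level of -0.48 on the Sham female array to -1.65 on the TiO2-H female array. The level of chr3:95754684-95755361 went from -0.38 to -1.03 on the same arrays. The levels of both thus went against their call as higher in females.

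Of the 4 regions lower in both sexes, chr15:27395901-27397085 was at -0.43, -0.53, -0.96 and -0.79, with 4, 4, 1 and 2 of its 6 probes measured in the MeDIP channel. The region at chr7:133709586-133710068 was at -0.77, -0.43, -1.18 and -1.16, with 2, 3, 0 and 1 of 5 probes measured. The other two, chr2:170336792-170337371 and chr8:72356375-72356909, had 1 or 2 measured probes on each TiO2-H array. No fold is given for the 4, because at most 2 of their probes were measured on a TiO2-H array. None of them had a symbol. At chr8:72356375-72356909 the level was -0.96 on the Sham male and -0.83 on the TiO2-H male array, against its call as lower in males.

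Across both labelled sexes, no member passed an adjusted p of 0.05 between TiO2-H and Sham in limma's moderated test on the region levels of the 4 arrays (2 against 2, Benjamini-Hochberg over all 5606 regions). The smallest adjusted p among the members was 0.968. Over all eligible regions 2 (0.0357%) passed an adjusted p of 0.05, Loxl2 and an unnamed region at chr6:91106557-91107096, both lower in TiO2-H and neither in the low set. An unadjusted p under 0.05 was reached by 9 members (1.25%), 3 higher and 6 lower, against 4.14% of all eligible regions. The same levels chose the members, and holding them all at -0.3 or less limits the room for a difference. Nothing is therefore read from this share or from the p-values of the members. A p that misses the threshold does not show that the levels of the members were equal. Leaving out the Sham male array leaves 1 Sham array against 2, so only log2 differences are given for that fit and nothing is read from them. In the 3 members that this fit picked out they were -1.45 in Atrip, -1.46 at chr11:109511477-109512189 and -1.43 at chr15:77800770-77801700. Each of the 3 was lower on the Sham male array than on the Sham female array by more than 1.1. In Atrip and the region on chromosome 15 no probe was measured in the MeDIP channel on either TiO2-H array. The lone Sham array of that fit was assumed to vary like the TiO2-H pair.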

How the data were processed

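Per the labels, pooled genomic DNA was sonicated, enriched with an antibody against 5-methylcytosine, labelled with Cy5, and hybridised with Cy3-labelled input DNA to a mouse CpG island array designed on mm9. Per the file headers, the authors used Feature Extraction 10.7.3.1. The deposited processed intensity values are background-subtracted and scaled by dye, and raw median spot and background intensities are deposited as well. The deposited log10 ratio of Cy5 over Cy3 is not centred and served as an alternative. A deposited p-value of the scanner's error model was not used.

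Log2 ratios of the processed intensities were centred on the autosomal median (85850 of 88737 probes), and 14178 autosomal regions were formed, of which 8838 had 5 or more probes. No member probe was flagged as an outlier (0 of 5074). Folds followed the study's limits of 1.5 and 0.67. Tests used limma 3.58.1 in R 4.3.3 on region medians, and the fit was tested on simulated data. Other steps used Python 3.11.15.

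The members, gene lists and tests were chosen with earlier results of these data known. Named were the 5 lowest members, the 5 with most probes (1 of them is not reported here, nor is 1 region of a gene list), the 3 on either side of the limit, up to 5 past the fold the same way in both sexes, and up to 4 lowest per gene list; where a ranked region lacked a symbol, the next with one was added. Symbols were taken from 5453 probes of the study's incomplete list where probe and position matched, and were updated through RefSeq accessions. The annotation's coordinates are on GRCm38.p6 and those of the regions on mm9, and none were converted. The files hold median rather than mean spot signals, so normexp used the medians. The number of arrays, 1 per group, limits the precision. Alternatives changed the ratio, the region rule, the labels and the arrays used.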

Additional observations from a re-analysis of the deposited data

Results flagged for a closer look

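Opposite changes in the 2 labelled sexes were seen in 41 low regions, which were at 1.5-fold or more in the male and at 0.67-fold or less in the female comparison, and in 0 regions the other way round. Over all eligible regions the shares were 1.86 and 3.28%. The X-linked input signal went against the TiO2-H labels, and when those were crossed the 41 became 7 and the 0 stayed 0. With 1 array per group the difference between the sexes was not tested. The Sham male array had the widest spread and the Sham female array the narrowest, with median absolute deviations of 1.08 and 0.60, against 0.91 and 1.04 on the TiO2-H male and female arrays, and the part of this in the 41 regions was not tested. No group had enough arrays to look for a sample apart from the others.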

How the results depend on the processing

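The count of 719 low regions was 2689 without centring, 1176 with regions of 3 or more probes, 208 with 8 or more, 246 at a limit of -0.5 and 1537 at a limit of -0.1, and from 795 to 1458 with 1 array left out. It was 0 when every probe also had to have Cy5 well above background on all 4 arrays, and 0 after normexp. The normexp fit failed on the Sham female array, leaving a median absolute deviation of 0.011 against 0.445 to 0.505 on the other 3, so its values here are given for completeness and bear on nothing that involves that array. Other settings gave 671 to 944, and the deposited log ratios 720. The mean in place of the median kept 455 of the 719 regions whole. The high set held 292 regions without centring, 0 after normexp, and 756 to 929 with 1 array left out. The 217 probes at 1 or more on all arrays inside low regions numbered 137 without centring, 2 after normexp and 360 at a limit of 0.5.

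In the male comparison the higher members numbered 68 with a common spread, 69 with quantile normalization, 0 after normexp, 74 with the mean of the probe folds, 0 with measured probes alone and 49 with crossed labels; the lower ones 19 without centring, 0 after normexp, 15 with the mean and 7 with crossed labels. In the female comparison the higher members numbered 0 without centring, 49, 56 and 0 with common spread, quantile normalization and normexp, 4 with the mean and 26 with measured probes; the lower ones 480, 46, 41 and 87 without centring and with the same 3 settings, and 1 with measured probes. Between the Sham arrays 371, 70, 48 and 86 members were higher and 0, 41, 60 and 0 lower without centring, with common spread, quantile normalization and normexp. Between the TiO2-H arrays 4 were higher without centring and 0 after normexp, and 224, 10, 16 and 0 lower in the order above. After normexp, 0.0% of all eligible regions were higher and 0.64% lower in males, and 1.41 and 11.6% in females. Between the Sham arrays these shares were 9.06 and 0.66%, and between the TiO2-H arrays 0.018 and 0.0%. For the mean of the probe folds no share over all eligible regions was computed. The median log2 fold turned in males with common spread (-0.0169), quantile normalization (-0.0015) and measured probes (-0.80), in females with quantile normalization (0.072) and measured probes (0.44), between the Sham arrays with quantile normalization (-0.0582) and between the TiO2-H arrays with common spread (0.0526). The 41 members higher in males and lower in females became 7 with common spread, 5 with quantile normalization and 7 with crossed labels. The cause was not tested.

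limma called 2 regions, 6 with the slide as a block, 0 without centring, 6 with quantile normalization, 0 after normexp, 5 single probes of 41111, and 2 to 84 with 1 array left out, among them 0 to 3 members. A fit with 1 array left out has 1 array in a group, so nothing is read from its count. Of 245 levels of 49 named regions under 5 settings, 164 moved by less than 1 SD over the arrays and 74 by more, and 7 turned positive, all after normexp: Mzb1 0.0451, Mir92b 0.0913, Kcnk5 0.0208, chr13:12198108-12199407 0.021, chr11:34646752-34647334 0.10, chr3:95754684-95755361 0.31 and chr14:56300293-56300985 0.0766. The slide, which is also the labelled sex, pairs each TiO2-H array with a Sham array, and the fit with it as a block called 6 regions (smallest adjusted p 6.2e-05 in limma) and 0 members. The labels carry no other pairing. The deposited log ratios, the settings of the pairs of equal exposure, of the high set, of the high probes, of the opposite changes and of the named levels were chosen after seeing the data.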

Other observations

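The rule was also applied to chromosome X, which the low set leaves out. Of 116 eligible X-linked regions, 0 were at -0.3 or less on all 4 arrays, against 12.8% of the autosomal ones. The Sham female array alone allowed at most 1 such region. The X-linked regions at the limit or below numbered 28 in the Sham male and 1 in the Sham female pool. They numbered 8 in the TiO2-H pool with the male label and 23 in the other TiO2-H pool. The arrays with many were those with a low X-linked input signal.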
